A study of Mus musculus with 20 samples.

Results

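The perilipins are proteins that coat the surface of lipid droplets, and 3 of their genes, *Plin4*, *Plin2* and *Plin3*, were examined among the 17211 genes measured in mouse brain. The 3 genes were taken by name, and the family was selected on measured values, because *Plin4* had stood out between the genotypes in earlier results of the same brains. The genotype difference of each perilipin is therefore given as a description without a test. The brains came from 10 *Winnie* mice, which carry a mutation of the mucin gene *Muc2* and develop spontaneous chronic colitis, and from 10 C57BL/6 mice as controls. All mice were 14 weeks of age, none received a treatment that the labels name, and each group was labelled as 5 females and 5 males. The mutation is inherited and thus not limited to the gut. RNA of each brain was sequenced as 1 library, and expression was given as CPM, the reads of a gene relative to the reads of all listed genes in the library, on a scale common to all libraries.

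Lipid droplets store triglycerides and cholesteryl esters behind a single layer of phospholipid, and perilipins bind to this layer and govern the access of lipases to the stored lipid. *Plin2* is the perilipin found on droplets of most tissues, including glia, and its protein is degraded when it is not bound to lipid. *Plin3* encodes a cytosolic protein that moves to small, newly formed droplets. *Plin4* encodes a protein with a long series of amphipathic repeats and is best known from fat and muscle cells. *Plin1* and *Plin5*, the perilipins of fat cells and of oxidative tissues, were not analysed here.

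*Plin4* (ENSMUSG00000002831) lies on the minus strand at chr17:56100591-56109803 and *Plin3* (ENSMUSG00000024197) on the same strand at chr17:56277476-56292873, with 183 kb between their starts. *Plin2* (ENSMUSG00000028494) lies on the minus strand at chr4:86648386-86670060. All positions refer to GRCm38, and each interval is the whole gene with its exons and introns. The 250 bases before the RefSeq start of each gene are shown because these promoters belong to genes of 1 family with unlike expression in the same brains. They are printed 5′ to 3′ on the strand of the gene, from RefSeq on GRCm38.p6, and capitals mark letters that matched a searched motif.
*Plin4*, chr17:56109783-56110032: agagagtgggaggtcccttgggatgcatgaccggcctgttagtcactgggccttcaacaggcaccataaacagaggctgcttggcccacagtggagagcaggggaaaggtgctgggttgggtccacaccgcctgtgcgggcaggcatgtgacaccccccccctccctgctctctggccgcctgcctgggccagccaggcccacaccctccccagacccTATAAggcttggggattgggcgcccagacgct
*Plin2*, chr4:86670060-86670309: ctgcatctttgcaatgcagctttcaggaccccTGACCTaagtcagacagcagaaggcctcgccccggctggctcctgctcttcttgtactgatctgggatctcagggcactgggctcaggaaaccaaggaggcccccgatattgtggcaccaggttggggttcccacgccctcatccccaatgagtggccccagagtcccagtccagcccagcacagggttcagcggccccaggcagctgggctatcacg
*Plin3*, chr17:56290512-56290761: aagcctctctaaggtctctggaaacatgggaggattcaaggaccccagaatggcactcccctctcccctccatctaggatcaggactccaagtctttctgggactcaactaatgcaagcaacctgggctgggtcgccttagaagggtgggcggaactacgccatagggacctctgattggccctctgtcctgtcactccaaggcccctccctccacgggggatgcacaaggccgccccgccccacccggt

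The TATA core, TATAA on either strand, began 32 bases before the RefSeq start of *Plin4* and was absent from the windows of *Plin2* and *Plin3*. This motif was shortened from a longer form after the sequences had been read, and it occurred in 22.8% of 32851 mouse promoters of the same length. The nuclear receptor half-site AGGTCA was found in the *Plin2* window as its reverse complement, starting 218 bases before the start, and occurred in 14% of all promoters. The glucocorticoid receptor half-site AGAACA (16.1% of promoters), the E-box CACGTG (6.02%) and the hypoxia response core ACGTG (16.6%), which the E-box contains, were found in none of the 3 windows on either strand. The starts that RefSeq gives lie inside the gene intervals printed above, which GENCODE annotates, and for *Plin3* the whole window does. Distances of motifs are counted from the RefSeq starts. A match describes letters in a window and not a bound site.

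The libraries held 16540303 to 23923769 reads over the listed genes. Their numbers ran from 1 to 10 for C57BL/6 and from 11 to 20 for *Winnie* mice, so library order and genotype cannot be told apart. Expression of *Xist* and *Ddx3y* matched the labelled sex in 10 of 10 *Winnie* brains, but went against it in 9 of 10 C57BL/6 brains, so sex was compared only among *Winnie* mice. *Xist* was high in 6 C57BL/6 and 5 *Winnie* brains, and *Ddx3y* in 4 and 5. *Muc2* was not analysed here, so the genotype itself rests on the labels. Across all genes, limma called 434 of 17211 at an FDR under 0.05 (2.52%), with 261 (1.52%) up and 173 (1.01%) down in *Winnie* mice. At the threshold that the study used, an FDR under 0.001 with a 1.5-fold change, limma and edgeR called 0 genes and DESeq2 called 12, while 3030 genes had an unadjusted limma p under 0.05. These percentages are the background for the counts that follow.

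*Plin4* transcripts were higher in *Winnie* mouse brains than in brains from C57BL/6 mice. Expression was lowest at 1.47 CPM, 3.04 CPM at the median and highest at 7.29 CPM in C57BL/6, against 4.90, 12.4 and 44.4 CPM in *Winnie*. All 10 *Winnie* brains lay above the C57BL/6 median and 8 of 10 lay above the highest C57BL/6 brain. The means were 18 ± 13.7 CPM (SD, n = 10) and 3.73 ± 1.85 CPM (SD, n = 10), a ratio of 4.83. On the log2(CPM + 0.5) scale the difference was 1.91 (SE 0.386), and no other gene had a larger absolute difference on this scale. With edgeR on the recovered reads, 1 gene exceeded it. These values were the reason for the choice of the gene and are no evidence for it. Of all genes, 82 (0.476%) had at least 8 *Winnie* brains above the highest C57BL/6 brain.

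**Figure D1:**
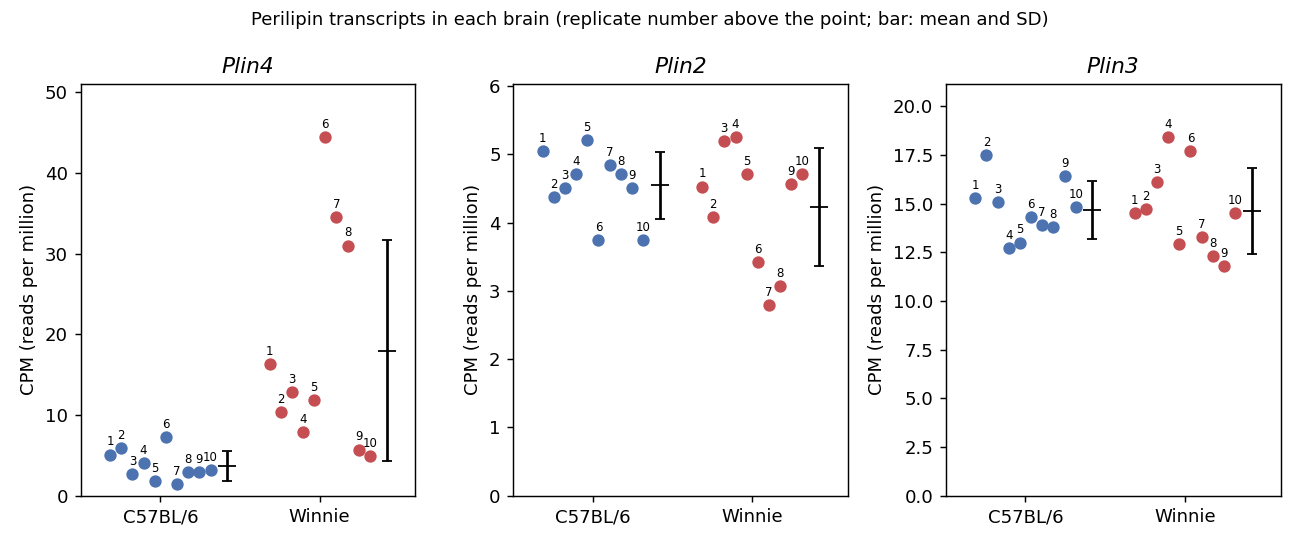
Expression of *Plin4*, *Plin2* and *Plin3* in CPM (y axis, from 0) in each C57BL/6 (blue) and *Winnie* (red) brain, with the replicate number above each point and the group mean with its SD as a bar. *Winnie* brains 6, 7 and 8 hold the highest *Plin4* values (44.4, 34.5 and 31.0 CPM) and the lowest *Plin2* values (3.42, 2.79 and 3.07 CPM), while *Plin3* overlaps between the genotypes.

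The *Winnie* brains were far from uniform in *Plin4*. Brains 6, 7 and 8 reached 44.4, 34.5 and 31.0 CPM, whereas brains 9 and 10 held 5.72 and 4.90 CPM, within the C57BL/6 range. The library numbers were 16, 17 and 18 for brains 6, 7 and 8, and 20 and 19 for brains 9 and 10. A relation of *Plin4* to library order was not tested. The other 5 *Winnie* brains held between 7.88 and 16.3 CPM, all above the highest C57BL/6 brain. From the lowest to the highest of the 20 brains *Plin4* spanned 30.3-fold, or 26 to 819 reads. Its log2 SD within genotypes was 0.866, larger than that of 99.8% of genes. Without *Winnie* brains 6, 7 and 8, a choice made after seeing the values, the mean of the 7 remaining *Winnie* brains was 10 ± 4.09 CPM (SD) and the difference 1.33 (SE 0.301), with 5 of 7 above the highest C57BL/6 brain. These are levels in RNA of whole brain, in which more cells of a type and more RNA per cell cannot be told apart.

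*Plin2* differed little between the genotypes. It lay at 3.75, 4.62 and 5.21 CPM (lowest, median and highest) in C57BL/6 and at 2.79, 4.55 and 5.25 CPM in *Winnie* mouse brains. The means were 4.55 ± 0.487 CPM (SD, n = 10) in C57BL/6 and 4.23 ± 0.866 CPM (SD, n = 10) in *Winnie*, a log2 difference of -0.11 (SE 0.0956). The groups overlapped, apart from *Winnie* brains 6, 7 and 8, which at 3.42, 2.79 and 3.07 CPM lay below every C57BL/6 brain. Without these 3 brains the log2 difference was 0.05 (SE 0.0797). *Plin2* was measured from 52 to 108 reads per brain.

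*Plin3* lay at 12.7, 14.6 and 17.5 CPM (lowest, median and highest) in C57BL/6 and at 11.8, 14.5 and 18.4 CPM in *Winnie* mouse brains. Means were 14.7 ± 1.48 and 14.6 ± 2.21 CPM (SD, n = 10 each), a log2 difference of -0.02 (SE 0.0726) from 224 to 362 reads per brain. The groups overlapped, with 2 *Winnie* brains above and 2 below the C57BL/6 range.

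The make-up of the family is best read per length, as RPKM, the CPM divided by the kilobases of exon. In C57BL/6, *Plin3* had the highest level at 3.88 ± 0.391 RPKM (SD, n = 10), followed by *Plin2* at 1.29 ± 0.139 RPKM and *Plin4* at 0.645 ± 0.320 RPKM. The levels of *Plin3* and *Plin2* did not overlap in C57BL/6, whereas 1 of 10 C57BL/6 brains held more *Plin4* than *Plin2* per length. In *Winnie* mouse brains the order of the means was *Plin3* at 3.86 ± 0.584 RPKM, *Plin4* at 3.11 ± 2.37 RPKM and *Plin2* at 1.21 ± 0.247 RPKM (SD, n = 10). *Plin4* exceeded *Plin2* in 7 of 10 *Winnie* brains and exceeded *Plin3* in 3 of 10, against 0 of 10 in C57BL/6. Within *Winnie* mouse brains the ratio of *Plin4* to *Plin3* per length ran from 0.221 to 1.71 with a median of 0.564. A difference between the 2 genes was not tested. As a share of the 3 perilipins per length, *Plin4* made up 4.79% to 20.7% (median 9.53%) in C57BL/6 and 14.1% to 58.2% (median 29.1%) in *Winnie*. The median share of *Plin3* was 66.8% in C57BL/6 and 51.8% in *Winnie*, where the shares of the 3 genes must add up.

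Sex was a contrast that played no part in the choice of the genes. Among *Winnie* mice, *Plin4* ranged from 4.90 to 44.4 CPM in the 5 brains labelled male and from 7.88 to 16.3 CPM in the 5 labelled female. The highest and the lowest brains were thus all male, and the female brains lay between them. The log2 difference of male minus female was 0.54 (SE 0.679, exact two-sided permutation test, p = 0.437, adjusted over the 3 genes p = 0.437). The log2 SD was 1.47 among males and 0.37 among females, a contrast that was noticed in the data and was not tested. For *Plin2* the difference was -0.34 (SE 0.147, exact permutation p = 0.0873, adjusted p = 0.262), with 2.79 to 4.72 CPM in males and 4.08 to 5.25 CPM in females. For *Plin3* it was -0.14 (SE 0.130, exact permutation p = 0.294, adjusted p = 0.437). No member passed the test, and 5 brains against 5 allow no p under 0.00794.

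The perilipins were next compared with each other across brains, after the genotype mean of log2(CPM + 0.5) had been removed. *Plin4* and *Plin2* moved in opposite directions, with a Pearson r of -0.73 over 20 brains (permutation test within genotype, p = 0.00177, adjusted over 3 pairs p = 0.00531) and a Spearman rho of -0.68 (p = 0.00375, adjusted p = 0.0112). The relation rested on few brains. Without *Winnie* brains 6 and 7, the farthest from the median of *Plin4*, r was -0.59 (n = 18, permutation p = 0.0175, adjusted p = 0.0526), and without brains 6, 7 and 8 it was -0.34 (n = 17, permutation p = 0.194, adjusted p = 0.436). Within *Winnie* alone r was -0.80 (n = 10, permutation test, adjusted p = 0.0202) and within C57BL/6 alone -0.49 (n = 10, permutation test, adjusted p = 0.408). The rho was -0.70 in *Winnie* alone (permutation, adjusted p = 0.0907) and -0.50 in C57BL/6 alone (permutation, adjusted p = 0.294). Without *Winnie* brains 6 and 7 it was -0.47 (permutation, adjusted p = 0.183), and without brains 6, 7 and 8 -0.38 (permutation, adjusted p = 0.43). *Plin4* and *Plin3* had an r of 0.16 and a rho of 0.12 (permutation, adjusted p = 0.561 and 0.895), and *Plin2* and *Plin3* an r of 0.16 and a rho of 0.03 (permutation, adjusted p = 0.561 and 0.895). The r of *Plin4* and *Plin3* became 0.04 without *Winnie* brains 6 and 7. That of *Plin2* and *Plin3* became -0.17 without *Winnie* brains 7 and 8, the farthest from the median of *Plin2*. No relation of *Plin3* with either gene was thus detectable.

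Markers of some other cells fell or rose with *Plin4* in the same brains, and those of others did neither. Their part in the relations between the perilipins was not tested. The summed level of 5 choroid plexus markers was 485, 535 and 667 CPM in *Winnie* brains 6, 7 and 8, against 655 to 1040 CPM in the other 17, and its r was -0.72 with *Plin4* and 0.59 with *Plin2*. The 4 ependymal markers summed to 18.7, 18.6 and 16 CPM in these 3 brains and to 20.3 to 27.7 CPM in the others, with an r of -0.75 and 0.60. The 6 microglial markers had an r of -0.70 with *Plin4* and the 5 neuronal markers 0.50. The sums of 8 endothelial, 7 mural and 7 astrocyte markers had an r with *Plin4* of 0.11, 0.07 and 0.03. Among all of these, limma called *Cldn5*, 1 of 8 endothelial markers, lower and *Abcc9*, 1 of 7 mural markers, higher in *Winnie* mouse brains. The median log2 difference was 0.09 over the endothelial and 0.06 over the mural markers. Of all genes, 2.52% were called. The 8 adipocyte markers were not analysed here, so fat tissue adhering to a brain could not be examined, while 2 of 5 skeletal muscle markers, with 4.90 to 8.15 CPM in all brains together, had an r of -0.33.

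The genes most like each perilipin across brains were ranked by r among 15167 other genes with a mean of at least 1 CPM, as a description without a p. For *Plin4* these were *Gpr161* (r = 0.87), *Zbtb16* (0.86), *Mfsd2a* (0.86), *Fkbp5* (0.85) and *Ksr1* (0.85). *Zbtb16* encodes a transcription factor and *Fkbp5* a co-chaperone of steroid receptors, and both are induced by glucocorticoids, while *Mfsd2a* encodes the transporter that carries docosahexaenoic acid across the blood-brain barrier. *Fkbp5* reached 63.3, 59.8 and 50.6 CPM in *Winnie* brains 6, 7 and 8, against 22.9 to 42.8 CPM in the other 17. Without these brains, r with *Plin4* was 0.75 for *Gpr161*, 0.81 for *Zbtb16*, 0.68 for *Mfsd2a*, 0.64 for *Fkbp5* and 0.67 for *Ksr1*. Among C57BL/6 brains alone it was 0.82, 0.80, 0.53, 0.53 and 0.68. For *Plin2* the likest genes were *Ccdc184* (r = 0.83), *Aspg* (0.83), *Fgfr2* (0.78), *Prkch* (0.78) and *Vat1* (0.77). Without *Winnie* brains 6, 7 and 8, r with *Plin2* was 0.54, 0.82, 0.40, 0.46 and 0.44, in the same order. In C57BL/6 alone it was 0.43, 0.94, 0.34, 0.81 and 0.53. For *Plin3* they were *Vwa7* (0.88), *Tspan9* (0.85), *Nat8l* (0.85), *Nxpe3* (0.83) and *Tmem38b* (0.82).

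**Figure D2:**
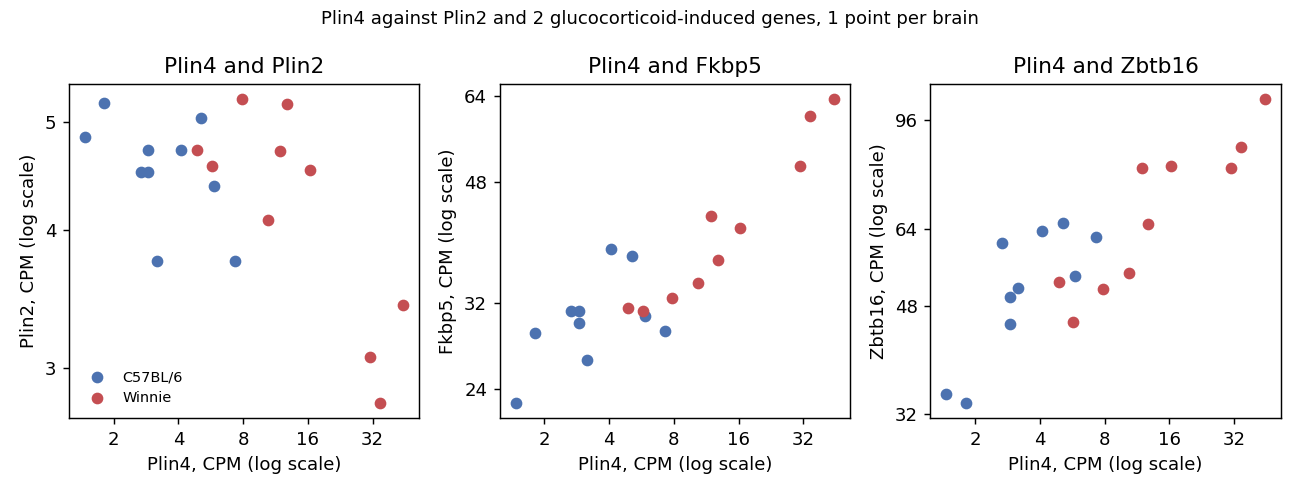
*Plin4* in CPM (x axis, log scale) against *Plin2*, *Fkbp5* and *Zbtb16* in CPM (y axes, log scales), 1 point per brain, C57BL/6 in blue and *Winnie* in red. The 3 *Winnie* brains at 31.0 to 44.4 CPM of *Plin4* sit at the bottom of the *Plin2* panel and at the top of the *Fkbp5* panel, and in C57BL/6 alone the r of *Zbtb16* with *Plin4* was 0.80.

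Since perilipins act together with other proteins of the droplet, 15 genes for such proteins were examined in the fit over all genes. None of the 15 was called by limma, edgeR or DESeq2. An unadjusted limma p under 0.05 was reached by 3030 of all 17211 genes and by 1 of the 15. That gene was *Spast*, which encodes a microtubule-severing protein that also resides on droplets, at 55.6 ± 2.64 CPM in *Winnie* and 58.7 ± 2.09 CPM in C57BL/6 (SD, n = 10, limma FDR = 0.232). *Vps13c*, a lipid transfer protein, had a log2 difference of 0.19 (SE 0.0926) and *Tmem159*, a partner of seipin, of -0.17 (SE 0.0888). The median difference of the group was -0.04, beside 0.002 over all genes. The 15 differences ranged from -0.17 to 0.19.

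The enzymes that release lipid from the droplet were examined next. Of 10 lipolysis genes, 1 was higher, 1 was lower and 8 were not called. *Pnpla2*, which encodes the triglyceride lipase ATGL that perilipins hold in check, was 32.6 ± 3.46 CPM in *Winnie* and 26.3 ± 2.37 CPM in C57BL/6 (SD, n = 10), a rise of 0.30 on the log2 scale (SE 0.0576, limma FDR = 0.0059). It was higher than the highest C57BL/6 brain in 6 of 10 *Winnie* brains, its r with *Plin4* was 0.76, and its 3 highest brains were *Winnie* 6, 7 and 8. Without these 3 brains the difference was 0.23 (limma FDR = 0.0489). *Mgll*, which encodes the lipase that completes the breakdown of monoglycerides, fell from 212 ± 23.1 to 184 ± 10.2 CPM (log2 -0.20, SE 0.0497, limma FDR = 0.0282). With *Winnie* brains 6, 7 and 8 left out its difference was -0.21, no smaller than with all brains, but it was not called among the fewer brains (limma FDR = 0.0760).

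Genes that make neutral lipid gave 0 limma calls of 25, with 1 call by edgeR and 2 by DESeq2. An unadjusted limma p under 0.05 was reached by 5 of the 25, beside 3030 of all 17211 genes. *Agpat4*, an acyltransferase of phosphatidic acid synthesis, had the smallest p with a log2 difference of -0.14 (SE 0.0402, limma FDR = 0.0544). *Fasn*, the fatty acid synthase, had 0.13 (SE 0.0408) and *Lpin1*, a phosphatidate phosphatase, 0.15 (SE 0.0534). Of 14 genes of fatty acid uptake and binding, limma and edgeR each called 1 and DESeq2 called 3. *Fabp7*, the fatty acid binding protein of radial glia and astrocytes, fell from 12.9 ± 2.35 CPM in C57BL/6 to 9.5 ± 1.43 CPM in *Winnie* (log2 -0.42, SE 0.0926, limma FDR = 0.0163), and its r with *Plin4* was -0.47. Its difference was -0.40 with *Winnie* brains 6, 7 and 8 left out (limma FDR = 0.0727). *Mfsd2a*, named above for its r with *Plin4*, had a log2 difference of 0.40 (SE 0.128, limma FDR = 0.102, DESeq2 FDR = 0.0384). Without *Winnie* brains 6, 7 and 8 the difference of *Mfsd2a* was 0.20 (limma FDR = 0.259).

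Of 26 genes of PPAR signalling and fatty acid oxidation, limma called 2 higher and 1 lower. *Ucp2*, a mitochondrial carrier, rose by 0.30 (SE 0.0713, limma FDR = 0.0238) and *Ppargc1a*, a coactivator of mitochondrial genes, by 0.17 (SE 0.0449, limma FDR = 0.0429). *Acot1*, a cytosolic acyl-CoA thioesterase, fell by 0.32 on the log2 scale (SE 0.0827, limma FDR = 0.0331). The median of the group was -0.02. Without *Winnie* brains 6, 7 and 8, *Ucp2* remained called (0.35, limma FDR = 0.0369), whereas *Ppargc1a* (0.13, limma FDR = 0.162) and *Acot1* (-0.34, limma FDR = 0.0730) were not called, the latter with a difference no smaller than with all brains. Without C57BL/6 brain 5 none of the 26 genes was called, and without C57BL/6 brain 1 there were 5.

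The last group held 18 genes induced by glucocorticoids, a list drawn up with the earlier results of these brains known. Of these, 7 were higher in *Winnie* mouse brains, 0 were lower and 11 were not called. An unadjusted limma p under 0.05 was reached by 14 of the 18, beside 3030 of all 17211 genes. The median log2 difference of the 18 genes was 0.41. *Hif3a*, which encodes a subunit of hypoxia-inducible factors, rose from 7.99 ± 3.08 to 18.1 ± 5.48 CPM (SD, n = 10, log2 1.17, SE 0.213, limma FDR = 0.0100), with 8 of 10 *Winnie* brains above the highest C57BL/6 brain. *Sgk1*, a kinase induced by corticosteroids, rose from 69.9 ± 30.3 to 133 ± 38.7 CPM (log2 0.98, SE 0.238, limma FDR = 0.0374). *Tsc22d3*, which encodes the glucocorticoid-induced leucine zipper protein, rose from 60.7 ± 10.6 to 84.5 ± 11.8 CPM (log2 0.48, SE 0.0961, limma FDR = 0.0139). The other genes called were *Arrdc2* (log2 0.70), *Sult1a1* (0.67), *Map3k6* (0.58) and *Errfi1* (0.28), with a limma FDR of 0.0316, 0.0130, 0.0157 and 0.0393. *Fkbp5* (0.43, limma FDR = 0.0874) and *Zbtb16* (0.42, limma FDR = 0.190) were not called.

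With *Winnie* brains 6, 7 and 8 left out, 0 of the 18 genes were called, with a limma FDR of 0.0505 to 0.0974 for the 7 named as called, in a comparison of fewer brains. The 7 differences kept their direction, at 1.0 for *Sgk1*, 0.97 for *Hif3a*, 0.65 for *Arrdc2*, 0.52 for *Sult1a1*, 0.42 for *Map3k6* and *Tsc22d3* and 0.31 for *Errfi1*, and the median over the 18 genes was 0.31. With 1 brain left out at a time there were 4 to 8 calls, with 4 reached without C57BL/6 brain 3, 4, 5, 8 or 9 or *Winnie* brain 2, 3 or 7.

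**Figure D3:**
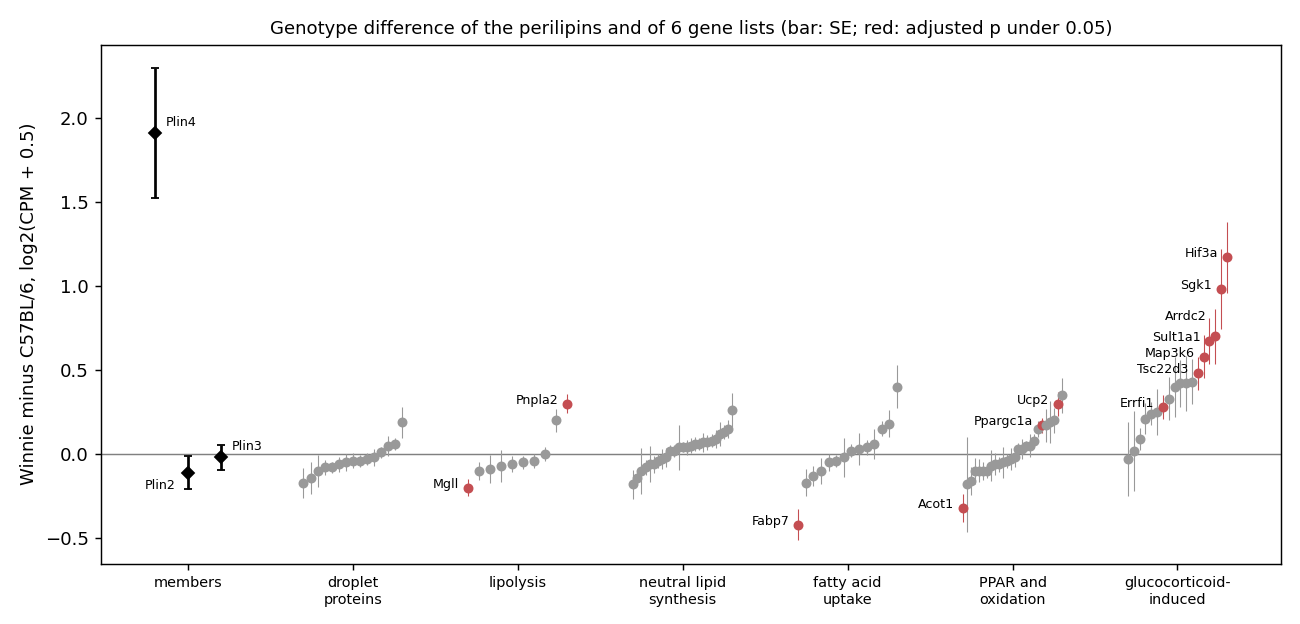
Difference between the genotypes, *Winnie* minus C57BL/6 in log2(CPM + 0.5) (y axis), for the 3 perilipins (black) and for each gene of 6 lists (x axis), sorted within a list. Bars are SEs and red points are genes with a limma FDR under 0.05. *Plin4* lies at 1.91, the droplet proteins lie between -0.17 and 0.19, and 7 of 18 glucocorticoid-induced genes are red and above 0.

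Within genotypes, glucocorticoid-induced genes tracked *Plin4* to unlike degrees. Their median r with *Plin4* was 0.41, beside 0.01 over all genes, and 9 of 18 had an r over 0.5, beside 2.97% of all genes. The list was drawn up with earlier results of these brains known, so these shares are a description and no independent support. Values ranged from 0.86 for *Zbtb16* to -0.34 for *Per1* and -0.48 for *Dusp1*, the lowest values, which were picked after they were seen. Among the 7 genes called, r ranged from 0.82 for *Map3k6* to 0.08 for *Errfi1*, with 0.19 for *Sgk1*. The median over the 18 genes was 0.37 with *Winnie* brains 6, 7 and 8 left out and 0.52 among C57BL/6 brains alone. The same genes had a median r of -0.22 with *Plin2* and of 0.13 with *Plin3*, the latter equal to the median over all genes. The other lists had a median r with *Plin4* between -0.10 and 0.12. In these correlations both genes of a pair were read from the same library of each brain, and they are given without a p.

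**Figure D4:**
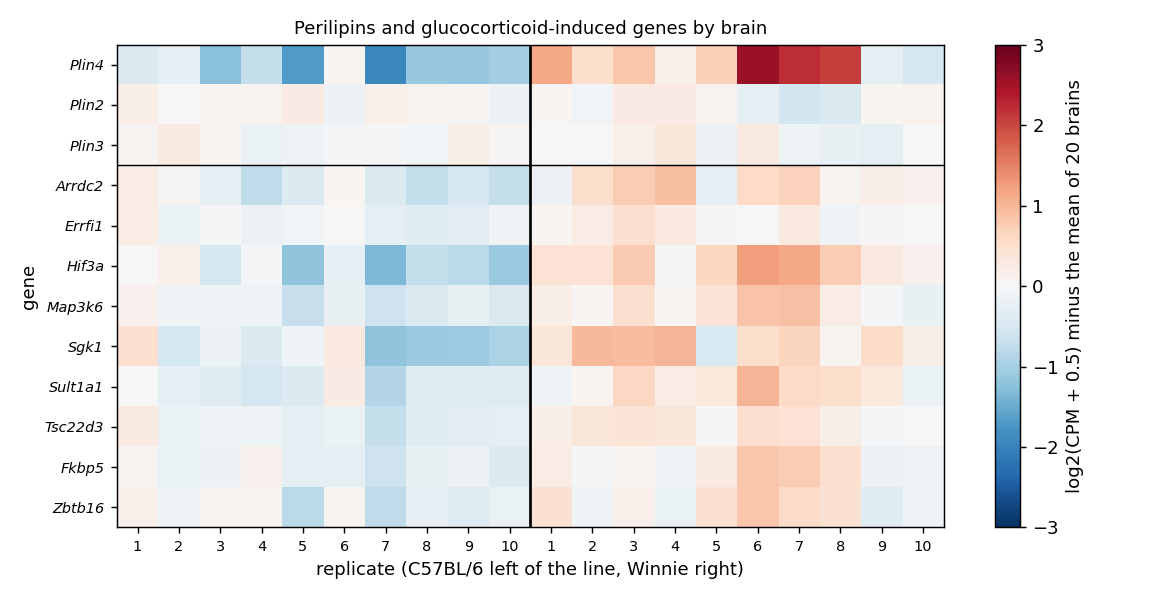
Log2(CPM + 0.5) minus the mean of the 20 brains (colour) for the perilipins, the 7 glucocorticoid-induced genes called and *Fkbp5* and *Zbtb16* (rows) in each brain (columns, C57BL/6 left and *Winnie* right of the line). *Plin4* is deepest red in *Winnie* brains 6, 7 and 8 and bluest in C57BL/6 brains 5 and 7 (1.81 and 1.47 CPM), whereas *Sgk1* is highest in *Winnie* brains 2, 3 and 4.

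Genes beside the perilipins in the genome were examined for a difference like that of *Plin4*. Of 44 other genes within 500 kb of *Plin4*, *Plin3* or *Plin2*, limma, edgeR and DESeq2 called 0. An unadjusted limma p under 0.05 was reached by 8 of the 44, beside 3030 of all 17211 genes. The 27 neighbours of *Plin4* ranged from -0.22 to 0.57 on the log2 scale with a median of 0.00. The highest was *Lrg1*, the gene of a secreted glycoprotein, whose start lies at -12.2 kb from that of *Plin4* (upstream), with 2.12 CPM in *Winnie* and 1.26 CPM in C57BL/6 (log2 0.57, SE 0.294, limma FDR = 0.329). The gene on the other side, *Hdgfrp2*, overlaps the end of *Plin4* by 17 bases on the opposite strand, and its difference was -0.03 (SE 0.0411, limma FDR = 0.734). Whether strand was used in counting is not given in the sources used here, so reads in those 17 bases could belong to either gene. *Plin5*, whose start lies 7.79 kb from that of *Plin4*, was not analysed here.

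**Figure D5:**
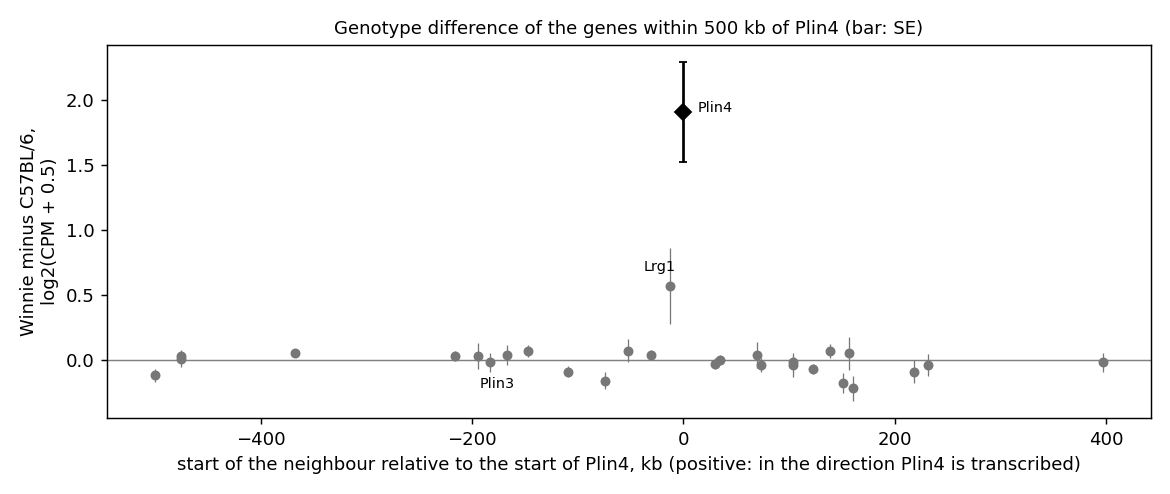
Difference between the genotypes, *Winnie* minus C57BL/6 in log2(CPM + 0.5) with its SE (y axis), of each measured gene within 500 kb of *Plin4*, against the distance of its start from the start of *Plin4* in kb (x axis, positive in the direction in which *Plin4* is transcribed). *Plin4* stands at 1.91 (black), *Lrg1* at 0.57 and *Plin3* at -0.02.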

How the data were processed

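Brain RNA of 10 C57BL/6 and 10 *Winnie* mice was sequenced as paired-end reads of 100 bases. The authors processed the reads with RNAsik 1.5.4 on GRCm38 and counted them per gene with featureCounts, and deposited 1 table of CPM (reads scaled to a common library total) for 17211 genes. Strandedness is not given in the sources used here. All 20 samples were used as labelled, although the methods of the study name 8 C57BL/6 and 6 *Winnie* mice. The labels name no separate batches.

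Every value was a whole number of reads, 100% in each library, once divided by the smallest step of that library, and the recovered counts per gene were used for edgeR 4.0.16 and DESeq2 1.42.0 as alternatives. The main fit was limma 3.58.1 (R 4.3.3) with trend and robust variance on log2(CPM + 0.5), where a fold change of a low gene is understated. FDR is the Benjamini-Hochberg adjusted p over all genes, and genes were called under 0.05. The study used edgeR on counts, which deposited CPM do not give directly. Permutation tests were two-sided with 100000 resamples within genotype, or exact (scipy 1.17.1). RPKM used exon lengths of GENCODE M21, which matched 17128 genes. Scripts were tested on simulated data.

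Members, lists and motifs were chosen with earlier results of these data known. Named genes were the members, the called genes of each list or else the 3 with the smallest p, neighbours within 500 kb, and the 5 likest genes of each member. *Cldn5*, *Abcc9*, *Per1* and *Dusp1* were named after their values were seen. The p-values measure the spread between mice. Alternatives were quantile normalization, median-ratio scaling, pseudocounts of 0.1 and 1, only genes with a mean CPM of at least 1, labelled sex or *Ddx3y* as a covariate, a replicate block, each brain left out in turn and, added after seeing the data, *Winnie* brains 6, 7 and 8 left out, each genotype alone, and each brain left out for the list and neighbour counts.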

Additional observations from a re-analysis of the deposited data

Results flagged for a closer look

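In 31 genes named above, each genotype was examined for 1 brain that stood apart from the other 9, which makes 62 groups, of which chance flags about 1 in 20. In 2 groups 1 brain stood apart. *Nat8l*, one of the genes most like *Plin3*, was 458 CPM in C57BL/6 brain 2, and the next highest C57BL/6 brain held 409 CPM. *Tsc22d3*, of the glucocorticoid-induced genes, was 85.5 CPM in C57BL/6 brain 1 and 64.2 CPM in the next. None of the perilipins was among them. No contrast between groups and no other data were flagged.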

How the results depend on the processing

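The log2 difference of *Plin4* kept its direction under every alternative run, at 1.78 to 2.27 over 10 settings and 1.72 to 2.06 with each brain left out in turn, and was 1.33 without *Winnie* brains 6, 7 and 8. Those of *Plin2* (-0.14 to -0.05) and *Plin3* (-0.05 to 0.02) stayed within the spread between brains with each brain left out, although *Plin3* changed sign. The labelled sex differences in *Winnie* ranged from 0.20 to 0.97 for *Plin4*, -0.42 to -0.26 for *Plin2* and -0.23 to -0.08 for *Plin3* with each brain left out, and none passed the test. The r of *Plin4* with *Plin2* missed the threshold without the 2 farthest brains (-0.59), without *Winnie* brains 6, 7 and 8 (-0.34) and in C57BL/6 alone (-0.49), all with fewer samples. Their rho missed it in these settings and also in *Winnie* alone (-0.70). The r of *Plin2* with *Plin3*, which passed no test, turned to -0.17 without *Winnie* brains 7 and 8 and to -0.28 in C57BL/6 alone.

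Counts of limma calls depended on which brains were used, and the cause was not tested. Over all genes the count of 434 was 977 with DESeq2, 137 without *Winnie* brains 6, 7 and 8, and 169 to 694 with each brain left out, beyond 1.5 times without C57BL/6 brain 3, 5, 8, 9 or 10 or *Winnie* brain 2, 3, 7 or 8. Without *Winnie* brains 6, 7 and 8 there was 1 call for lipolysis, 0 for fatty acid uptake, 1 for PPAR and oxidation and 0 for glucocorticoid-induced genes. DESeq2 gave 2 calls for neutral lipid synthesis, 3 for fatty acid uptake and 5 for PPAR and oxidation. Neutral lipid synthesis had 1 call with quantile normalization, median-ratio scaling, edgeR or only genes with a mean CPM of at least 1. With each brain left out, calls ranged from 1 to 2 for lipolysis (1 without C57BL/6 brain 3 or 5 or *Winnie* brain 2 or 3), 0 to 1 for neutral lipid synthesis (1 without C57BL/6 brain 2 or 7 or *Winnie* brain 4 or 6), 1 to 2 for fatty acid uptake (2 without C57BL/6 brain 1 or 10 or *Winnie* brain 1), 0 to 5 for PPAR and oxidation (also 1 without C57BL/6 brain 3, 7 or 9 or *Winnie* brain 2 or 7), 4 to 8 for glucocorticoid-induced genes and 0 to 1 for the neighbours (1 without C57BL/6 brain 2). The droplet proteins had 0 calls throughout.

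With a replicate block, 227 genes were called in all and 1 of PPAR and oxidation, and no other list count moved by over 1.5 times. The replicate numbers were not treated as a pairing, since same-numbered brains had deviations with an r of -0.342 to 0.172 and only 2 of 10 pairs over 0.1. Read depth limits the precision of *Plin4* and *Plin2*, with as few as 26 and 52 reads in a brain.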
